A study of Mus musculus with 16 samples.

Results

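The integrated stress response genes and amino acid genes described here are a list of 35 genes, and 32 of them could be measured among the 10610 genes tested. They were chosen by name, with earlier results of these data known, so their shares beside all genes may not be independent of the data. They were followed in the mouse beta-cell line R7T1, derived from the pancreas, under 4 treatments: DMSO, the vehicle; the compound listed as BayK8644(2a), taken here to be BayK8644, an agonist that keeps L-type calcium channels open; Exendin-4, a peptide agonist of the GLP-1 receptor, which raises cAMP; and both agents together. Each treatment was sampled at 0.5, 2, 6 and 24 h, so that each of the 16 arrays is the sole array of its treatment and time. All 16 share the cell line and the array design. The sources used here give neither doses nor culture conditions, and no label tells whether the arrays stem from independent cultures. The p-values therefore reflect spread among these 16 arrays alone, and that spread may be technical.

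The integrated stress response starts when a stress kinase phosphorylates the translation factor eIF2. General translation then drops, while translation of the Atf4 mRNA rises, and the ATF4 protein switches on genes for amino acid synthesis, amino acid uptake and tRNA charging, together with feedback and death-linked genes such as Ddit3, Trib3 and Chac1. Beta cells carry a heavy load of secretory protein and are known for strong use of this pathway. Arrays read mRNA, so they do not show the translation step that controls ATF4 itself.

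Levels are log2 of the authors' GCRMA intensity, and a gene was tested where a probe set reached log2 4 on at least 2 arrays. Of the 35 genes, Slc7a11 and Stc2 stayed below that level on every array, with highest values of 3.28 and 2.51, so they were not measured, and Pycr1 had no probe set of its own symbol. The other 32 were at log2 4 or more on all 16 arrays, the lowest being Cth, at 6.42 on the DMSO array of 2 h, so the filter did not shape their differences. By role they are 7 transcription factors and effectors, 5 feedback genes and growth brakes, 11 genes of serine, one-carbon and amino acid synthesis, 7 amino acid transporters and 2 other targets.

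Sequence near the start sites is shown first, because ATF4 and its C/EBP partners bind a composite element whose core can be written TGATGNAA. Promoter windows of RefSeq (GRCm38.p6) were at hand for 30 of the 35 genes, and the 250 bases before each start were searched on both strands. The core was in the window of 8 of the 30 genes (26.7%), against 3.91% of all 27025 genes with a window. These were Atf3, Chac1, Asns, Nupr1, Vldlr, Pck2, Pycr1 and Slc7a11. A match is a description of letters and was not tested as a binding site. The list was chosen by name and holds known ATF4 targets, so a share above that of all genes is no independent evidence. The stretches below are read in the direction in which the core, in capitals, reads TGATGNAA; the first 5 belong to genes that rose in a comparison below, and Pck2 is shown beside them because its level moved little.
Nupr1: caagccctgtcTGATGCAAtctggcccttt
Chac1: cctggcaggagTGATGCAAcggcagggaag
Atf3: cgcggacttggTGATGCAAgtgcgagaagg
Asns: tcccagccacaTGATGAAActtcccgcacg
Vldlr: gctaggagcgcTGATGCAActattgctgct
Pck2: ctgtaagatacTGATGTAActttgaaggct

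The Nupr1 stretch lies at chr7:126625562-126625591, plus strand, and the Chac1 stretch at chr2:119351038-119351067, minus strand. That of Atf3 lies at chr1:191183425-191183454, plus strand, that of Asns at chr6:7693214-7693243, minus strand, that of Vldlr at chr19:27216809-27216838, minus strand, and that of Pck2 at chr14:55540152-55540181, minus strand. Vldlr has a further start site whose window held no match. Counted back from the start site, the core began at position -110 in Nupr1 and Atf3, -193 in Chac1, -23 in Asns, -200 in Vldlr and -103 in Pck2. The whole 250 bases before the start are given for Nupr1, the gene with the largest rise among these, and for Chac1 and Asns, which are textbook ATF4 targets, on the gene's own strand with the match in capitals; in Nupr1 and Chac1 it lies on the opposite strand and so reads TTGCATCA.
Nupr1: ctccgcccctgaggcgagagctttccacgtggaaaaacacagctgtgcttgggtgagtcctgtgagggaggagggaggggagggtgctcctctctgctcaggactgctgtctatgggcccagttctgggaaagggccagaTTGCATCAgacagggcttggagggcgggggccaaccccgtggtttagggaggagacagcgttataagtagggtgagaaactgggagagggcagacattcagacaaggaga
Chac1: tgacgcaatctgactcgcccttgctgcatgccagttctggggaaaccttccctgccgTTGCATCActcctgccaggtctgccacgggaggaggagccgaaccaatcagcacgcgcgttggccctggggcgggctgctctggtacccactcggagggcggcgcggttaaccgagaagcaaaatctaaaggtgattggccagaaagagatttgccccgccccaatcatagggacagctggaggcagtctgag
Asns: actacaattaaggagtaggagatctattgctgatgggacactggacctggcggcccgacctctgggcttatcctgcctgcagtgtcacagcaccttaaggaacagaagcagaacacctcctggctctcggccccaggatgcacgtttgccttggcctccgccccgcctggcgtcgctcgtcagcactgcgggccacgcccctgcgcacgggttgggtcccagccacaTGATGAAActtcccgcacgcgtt

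These windows lie at chr7:126625471-126625720, minus strand for Nupr1, at chr2:119350992-119351241, plus strand for Chac1 and at chr6:7693210-7693459, minus strand for Asns. The full cAMP response element TGACGTCA, bound by CREB, was in the window of Ppp1r15a alone among the 30 genes (3.33%), against 1.77% of all genes. The ER stress response element, bound by ATF6 and searched as CCAAT and CCACG at its fixed spacing, was in none of the 30, against 0.13% of all genes. Among the measured genes with a window, the median BayK8644 difference at 6 h was 0.32 for the 6 with a TGATGNAA core and 0.24 for the 21 without, and at 24 h it was 0.23 and 0.22.

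Arrays were alike in quality. On each array, 46.7 to 47.7% of the probe sets were at log2 4 or above. RNA quality, read from Actb as the 3' signal minus the 5' signal (log2), ranged from 0.59 to 0.77 on arrays with BayK8644 and from 0.62 to 0.80 on the others. All 8 beta-cell markers were measured, with Ins2 at 15.60 or more and Pdx1 at 13.22 or more on every array, and Nkx2-2, a beta-cell transcription factor gene, fell with BayK8644 by 0.38 at 2 h, 0.35 at 6 h and 0.64 at 24 h (limma, adjusted p = 0.0113, 0.0143 and 4.99e-04). Of 9 mesenchymal, endothelial and leukocyte markers, 8 stayed below log2 4 on all arrays, and of 6 acinar and duct markers 4 did, with a summed intensity at 24 h of 639 to 781 without and 768 to 815 with BayK8644. The exception in the first list was Vim, which rose with BayK8644 by 0.47 ± 0.09 at 6 h and 0.97 ± 0.09 at 24 h (limma, SE, adjusted p = 0.0281 and 4.99e-04), so the summed intensity of that list at 24 h was 1247 to 1275 without and 2376 to 2490 with BayK8644. Of 5 alpha, delta and PP cell markers, Gcg rose by 0.52 at 6 h and 0.56 at 24 h and Sst by 2.36 at 24 h (adjusted p = 0.0348, 0.0176 and 2.18e-04), and Ppy and Hhex stayed below log2 4. Irx2 went the other way at 24 h without passing. It read 4.92 with DMSO, 4.82 with exendin-4, 4.26 with BayK8644 and 4.20 with both agents. The sum of these 5 markers was 625 to 840 without and 910 to 1165 with BayK8644 at 6 h, and 613 to 618 and 954 to 1063 at 24 h. The part of these markers in the results below was not tested, and in bulk RNA fewer cells of a type and less RNA per cell cannot be told apart.

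With BayK8644, 1 of these genes rose at 0.5 h, Atf3, while Ddit3, Cebpb, Chac1 and Eif4ebp1 rose at 2, 6 and 24 h, and the serine synthesis enzymes and the arginine carrier Slc7a3 rose at 6 and 24 h. The 2 arrays with BayK8644 were set against the 2 without it at each time, in a limma fit over all genes with error pooled over the times. At 0.5 h, 1 of the 32 genes rose and 0 fell, at 2 h 5 rose, at 6 h 13 rose and at 24 h 12 rose, with 0 falling at any of these times. Over all genes the share that rose was 0.217% at 0.5 h, 1.15% at 2 h, 1.71% at 6 h and 2.99% at 24 h, and the share that fell was 0, 0.481, 0.773 and 2.12%. The median difference of the 32 was 0.03, 0.27, 0.27 and 0.24 at the 4 times, beside 0.01, -0.01, 0.01 and 0.01 over all genes. In all, 15 of the 32 rose at 1 time or more and 12 at 2 times or more. The share of all genes was not worked out for these counts over several times. Both BayK8644 arrays lay above both arrays without it for 10 of the 32 at 0.5 h, 21 at 2 h, 24 at 6 h and 23 at 24 h, beside 19.0, 17.3, 24.4 and 23.5% of all genes.

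**Figure D1:**
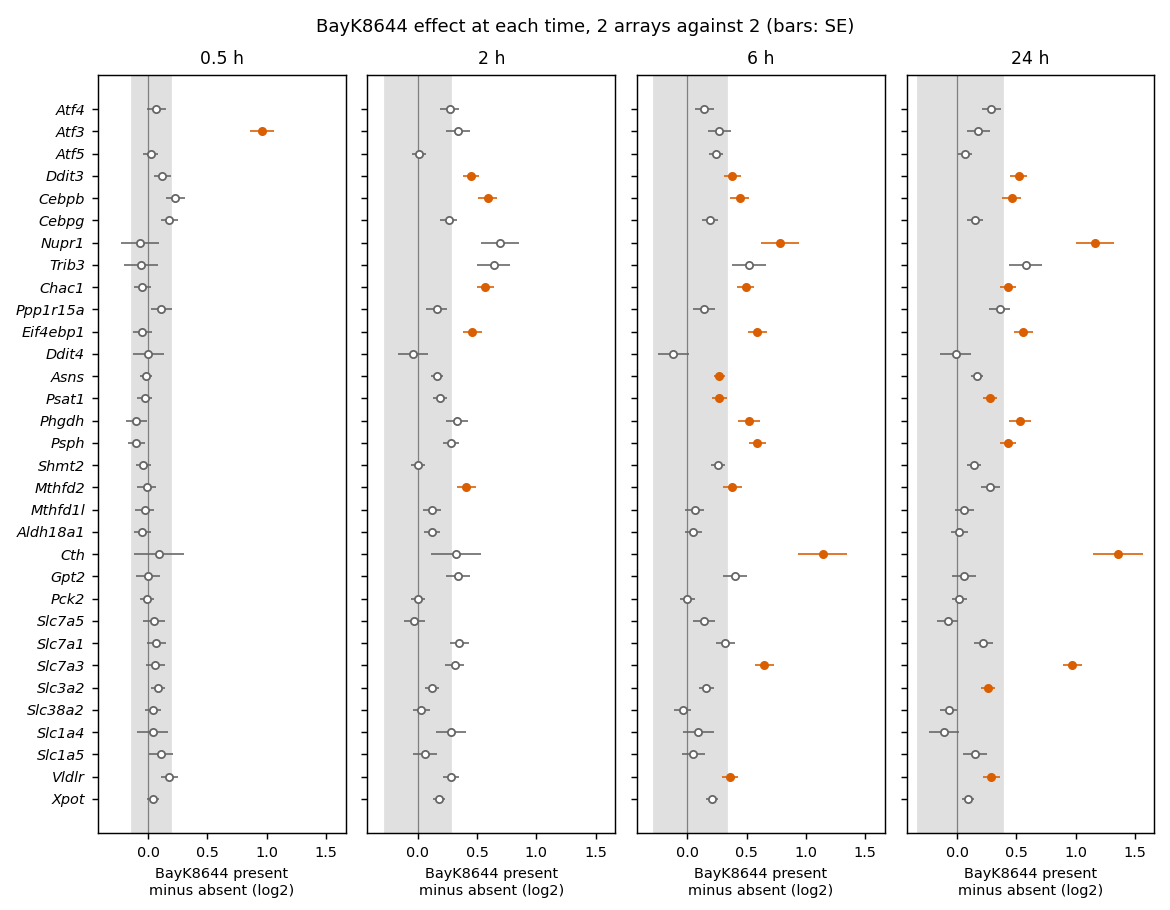
BayK8644 effect on each of the 32 genes at 0.5, 2, 6 and 24 h: the horizontal axis is the log2 difference between the 2 arrays with BayK8644 and the 2 without, bars are limma's standard error, filled points passed adjusted p 0.05, and the grey band spans percentiles 5 to 95 of all genes. Atf3 alone is filled at 0.5 h, and 5, 13 and 12 genes are filled at the later times, all to the right of 0.

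Counts of calls at single times changed when 1 array was left out, of the same time or of other times, whose error is pooled in the fit. The 4 arrays of a time leave a single residual degree of freedom. Leaving out any 1 of them removes that time's share of the error, whichever array it is. At the time tested it also leaves a single pair for the difference. The counts below thus reflect the design as well as the arrays, and do not single out an array. Without any 1 array of 0.5 h, the call there was lost. At 2 h the count was 0 without any 1 array of that time, 3 without any 1 of 0.5 h and 9 without any 1 of 24 h. At 6 h it was 0 without any 1 array of 6 h, 4 without any 1 of 0.5 h and 7 without any 1 of 2 h. At 24 h it was 1 without the exendin-4 array or the array with both agents of that time. The root mean square of the residuals was 0.051 at 0.5 h and 0.092 at 24 h, while the fit uses a single error for all times, so counts at different times are not on 1 scale.

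The direction could be read separately in pairs that have no array in common, BayK8644 against DMSO and both agents against exendin-4. Of the 32 genes, 12 were higher in both pairs at 0.5 h, 26 at 2 h, 25 at 6 h and 25 at 24 h, beside 28.3, 26.6, 34.8 and 28.7% of all genes. Median differences without and with exendin-4 were 0.02 and 0.04 at 0.5 h, 0.28 and 0.24 at 2 h, 0.27 and 0.24 at 6 h, and 0.20 and 0.22 at 24 h. The medians of both pairs were thus at most 0.04 at 0.5 h and at least 0.20 at each later time.

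**Figure D2:**
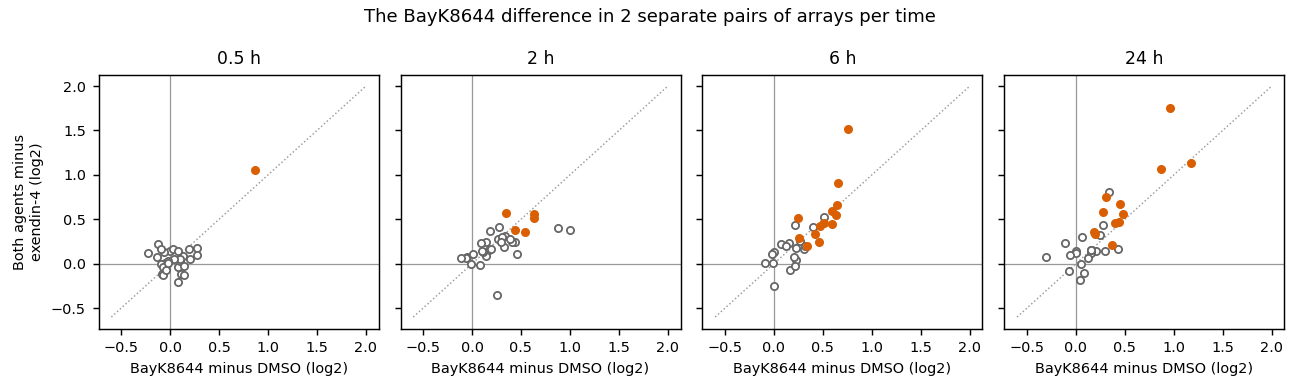
Each of the 32 genes as a point at each time, with the BayK8644 minus DMSO difference (log2) on the horizontal axis and the difference between both agents and exendin-4 (log2) on the vertical axis; filled points passed the test of the 4 arrays and the dotted line marks equal differences. At 2, 6 and 24 h, 26, 25 and 25 of the 32 points lie above 0 on both axes, against 12 at 0.5 h.

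The change of the BayK8644 effect from 0.5 h to each later time was tested in the same fit. At 2 h the effect was larger for 1 of the 32 genes, Chac1, where 0.207% of all genes had a larger and 0.0754% a smaller effect. At 6 h it was larger for Psph alone (0.236% larger and 0.132% smaller over all genes). At 24 h it was larger for 4, Chac1, Eif4ebp1, Slc7a3 and Nupr1, and smaller for Atf3 (0.603% larger and 0.415% smaller). Each of these 7 calls was lost when some single array was left out.

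Among the transcription factors, Atf3 was the early gene. Atf3, an inducible repressor of the ATF family that is also an early response gene to calcium, stood at 9.55, 9.12, 9.51 and 9.35 with DMSO at 0.5, 2, 6 and 24 h and at 9.73, 9.50, 9.51 and 9.37 with exendin-4. With BayK8644 it stood at 10.42, 9.57, 9.79 and 9.41, and with both agents at 10.78, 9.74, 9.77 and 9.67. The 2 BayK8644 arrays of 0.5 h were the highest of all 16, and from 2 h on the gap narrowed. The difference was 0.96 ± 0.10 at 0.5 h (SE, 1.94-fold, adjusted p = 0.00381) and 0.34, 0.27 and 0.18 later (adjusted p = 0.171, 0.234 and 0.316). Its effect at 24 h was smaller than at 0.5 h by a tested difference of -0.78 ± 0.14 (adjusted p = 0.0404).

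Ddit3, which encodes the stress factor CHOP, rose from 2 h on. It read 11.67, 11.62, 11.95 and 11.84 with DMSO and 11.81, 11.90, 12.12 and 12.04 with exendin-4 at the 4 times. With BayK8644 the values were 11.86, 12.16, 12.37 and 12.33, and with both agents 11.86, 12.26, 12.46 and 12.60. At each time both BayK8644 arrays were above both arrays without it. The differences were 0.45 ± 0.07 at 2 h, 0.38 ± 0.07 at 6 h and 0.52 ± 0.07 at 24 h (adjusted p = 0.0141, 0.0251 and 0.00427), and 0.12 at 0.5 h (adjusted p = 1). A dimmer probe set of Ddit3, with a mean of 7.34 against 12.05, gave 0.87, 0.40, 0.02 and -0.22 at the 4 times, and with the mean of both probe sets the differences of 0.42, 0.20 and 0.15 at 2, 6 and 24 h did not pass (adjusted p = 0.649, 0.810 and 0.799).

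Cebpb, a C/EBP factor that pairs with ATF4, was higher with BayK8644 in both of its probe sets. Its levels were 9.33, 8.85, 9.15 and 9.17 with DMSO, 9.48, 9.25, 9.25 and 9.30 with exendin-4, 9.60, 9.48, 9.62 and 9.61 with BayK8644 and 9.67, 9.82, 9.67 and 9.77 with both agents. The lowest value was that of DMSO at 2 h, and arrays with BayK8644 were the higher ones at every time. Cebpb rose by 0.59 ± 0.08 at 2 h, 0.44 ± 0.08 at 6 h and 0.46 ± 0.08 at 24 h (adjusted p = 0.00977, 0.0316 and 0.0190). The second probe set gave 0.50, 0.61 and 0.49 at those times, although the mean of both missed the threshold at each (adjusted p = 0.0646, 0.0582 and 0.0524).

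Nupr1, a small stress-induced chromatin protein gene, had the largest late rise of this group. On the DMSO arrays it read 8.06, 7.34, 8.03 and 8.36, and with exendin-4 8.06, 8.08, 8.09 and 8.73. On the BayK8644 arrays it read 8.14, 8.34, 8.68 and 9.54, and with both agents 7.85, 8.46, 8.99 and 9.86. The arrays overlapped at 0.5 h and were apart at the other times. Differences were 0.69 ± 0.16 at 2 h (adjusted p = 0.0734), 0.78 ± 0.16 at 6 h (adjusted p = 0.0389) and 1.16 ± 0.16 at 24 h (2.23-fold, adjusted p = 0.00445). Its second probe set gave 0.62, 0.94 and 1.33. The rise at 24 h exceeded that at 0.5 h by 1.22 ± 0.22 (adjusted p = 0.0409).

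Atf4 itself, the central factor, was abundant, and its mRNA did not pass at any single time. It lay between 13.57 and 14.08 on all arrays, and its BayK8644 differences were 0.07, 0.27, 0.14 and 0.29 (adjusted p from 0.0706 to 1). Cebpg, a dimer partner of ATF4, and Atf5, a relative under the same translational control, had differences between 0.15 and 0.26 and between 0.01 and 0.24, which did not pass either.

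Of the 5 feedback genes and growth brakes, Chac1 and Eif4ebp1 rose at 2, 6 and 24 h. Chac1, which degrades glutathione, stood at 11.13, 10.73, 10.75 and 10.66 with DMSO and 11.09, 10.99, 10.87 and 10.73 with exendin-4. With BayK8644 it stood at 11.07, 11.36, 11.25 and 11.06, and with both agents at 11.04, 11.51, 11.33 and 11.20. All 4 arrays of 0.5 h lay between 11.04 and 11.13, and later arrays were lower without BayK8644 and, with it, highest at 2 h. The differences were 0.57 ± 0.07, 0.49 ± 0.07 and 0.43 ± 0.07 (adjusted p = 0.00268, 0.00550 and 0.00766).

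Eif4ebp1, whose product restrains cap-dependent translation, stood between 10.76 and 11.11 on the 8 arrays without BayK8644. With BayK8644 its levels were 10.92, 11.11, 11.53 and 11.32, and with both agents 10.93, 11.53, 11.70 and 11.59. From 2 h on every BayK8644 array was at or above the highest array without it. It rose by 0.46 ± 0.08 at 2 h, 0.59 ± 0.08 at 6 h and 0.56 ± 0.08 at 24 h (adjusted p = 0.0253, 0.00582 and 0.00628), and a second probe set gave 0.49, 0.61 and 0.53.

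Trib3, a pseudokinase gene that inhibits ATF4 and AKT, had differences as large, 0.64, 0.52 and 0.58 at 2, 6 and 24 h, with a larger SE of 0.14, and did not pass (adjusted p = 0.0678, 0.110 and 0.0520). Its second probe set gave 0.68, 0.62 and 0.60. In separate pairs the 2 h difference was 0.88 without and 0.40 with exendin-4. Ppp1r15a, the phosphatase subunit that reverses eIF2 phosphorylation, differed by 0.36 at 24 h (adjusted p = 0.0519). Ddit4, an mTORC1 inhibitor gene, differed by between -0.12 and 0.00 and did not pass. Its separate pairs at 2 h gave 0.26 without and -0.35 with exendin-4, while the fit assumes them equal.

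Serine synthesis genes rose at 6 h and again at 24 h. Phgdh, Psat1 and Psph encode the 3 steps from glycolysis to serine, and all of them passed at 6 and 24 h. Psph stood at 12.75, 12.54, 12.51 and 12.66 with DMSO and 12.77, 12.66, 12.79 and 12.49 with exendin-4, at 12.68, 12.81, 13.14 and 12.94 with BayK8644 and at 12.64, 12.94, 13.34 and 13.08 with both agents. Its BayK8644 arrays were the lower ones at 0.5 h and the higher ones afterwards, and the tested change of the effect from 0.5 to 6 h was 0.69 ± 0.10 (adjusted p = 0.0288). Psph rose by 0.59 ± 0.07 at 6 h and 0.43 ± 0.07 at 24 h (1.51- and 1.35-fold, adjusted p = 0.00402 and 0.0133).

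Phgdh, the first enzyme of that route, read 13.26, 12.98, 13.14 and 13.28 with DMSO, 13.31, 13.22, 13.37 and 13.02 with exendin-4, 13.18, 13.39, 13.72 and 13.59 with BayK8644 and 13.19, 13.47, 13.82 and 13.77 with both agents. The exendin-4 array of 24 h was 0.26 below the DMSO array, which widens the gap at that time. Phgdh rose by 0.52 ± 0.09 at 6 h and 0.53 ± 0.09 at 24 h (adjusted p = 0.0256 and 0.0150). All 4 of its probe sets were higher with BayK8644 at both times, by 0.52 to 0.63 at 6 h and 0.48 to 0.61 at 24 h; their type can share probes with related transcripts. Psat1, the next enzyme, read 14.28, 14.16, 14.25 and 14.10 with DMSO, 14.23, 14.23, 14.32 and 13.99 with exendin-4, 14.25, 14.29, 14.51 and 14.29 with BayK8644 and 14.22, 14.47, 14.61 and 14.35 with both agents, and rose by 0.27 ± 0.06 and 0.28 ± 0.06 (adjusted p = 0.0410 and 0.0266).

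The other synthesis genes were mixed. Cth, which makes cysteine from cystathionine, had the largest rise of all 32 genes. It stood at 6.98, 6.42, 6.98 and 6.83 with DMSO and 6.84, 6.99, 6.65 and 6.95 with exendin-4. With BayK8644 it stood at 7.01, 6.76, 7.74 and 7.80, and with both agents at 6.99, 7.30, 8.17 and 8.70. The array with both agents was the highest at 2, 6 and 24 h. Cth rose by 1.14 ± 0.21 at 6 h and 1.36 ± 0.21 at 24 h (2.20- and 2.56-fold, adjusted p = 0.0289 and 0.00939). In separate pairs the 24 h difference was 0.96 without and 1.75 with exendin-4, while the fit assumes them equal. Over all times the departure from additive effects was 0.41 ± 0.35 for Cth (adjusted p = 0.801).

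Mthfd2, the mitochondrial folate enzyme, rose by 0.41 ± 0.08 at 2 h and 0.38 ± 0.08 at 6 h (adjusted p = 0.0354 and 0.0401) and differed by 0.28 at 24 h (adjusted p = 0.0680). Its levels were 12.88, 12.61, 12.94 and 12.82 with DMSO, 12.89, 12.74, 12.82 and 12.78 with exendin-4, 12.99, 13.06, 13.19 and 13.07 with BayK8644 and 12.77, 13.12, 13.33 and 13.10 with both agents. From 2 h on, arrays with and without BayK8644 did not overlap. Asns, asparagine synthetase, read 14.67, 14.48, 14.61 and 14.59 with DMSO, 14.58, 14.57, 14.70 and 14.61 with exendin-4, 14.62, 14.65, 14.95 and 14.80 with BayK8644 and 14.59, 14.72, 14.90 and 14.76 with both agents, and rose by 0.27 ± 0.05 at 6 h (adjusted p = 0.0339). Shmt2, the mitochondrial serine enzyme, differed by 0.26 at 6 h (adjusted p = 0.0550) and Gpt2, an alanine transaminase, by 0.40 (adjusted p = 0.0752). Aldh18a1, Mthfd1l and Pck2 differed by no more than 0.12 at any time and did not pass.

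**Figure D3:**
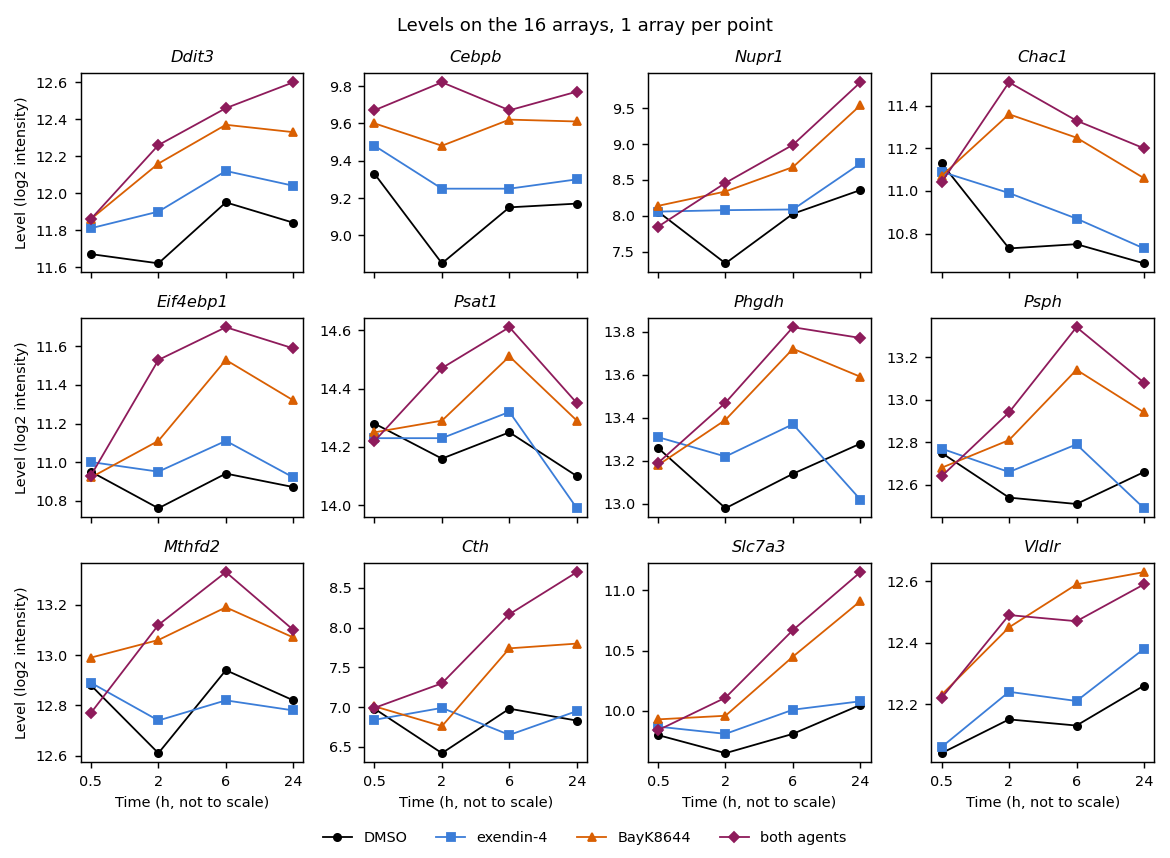
Log2 level of the 12 genes called for BayK8644 at 2 times or more, on each of the 16 arrays, by time on the horizontal axis (h, not to scale), with 1 line per treatment and 1 array per point; vertical scales differ. Lines of the 4 treatments start close together at 0.5 h for most genes, and the BayK8644 lines lie above the others at 6 and 24 h, with Cth reaching 8.70 and Nupr1 9.86 with both agents at 24 h.

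Among the amino acid transporters, Slc7a3 carried the largest rise. Slc7a3 encodes CAT-3, a carrier of arginine and lysine, and it stood at 9.80, 9.65, 9.81 and 10.05 with DMSO and 9.87, 9.81, 10.01 and 10.08 with exendin-4. With BayK8644 it read 9.93, 9.96, 10.45 and 10.91, and with both agents 9.84, 10.11, 10.67 and 11.15. The 4 arrays of BayK8644 at 6 and 24 h were above all 8 arrays without it. The rise was 0.65 ± 0.08 at 6 h and 0.97 ± 0.08 at 24 h (1.57- and 1.95-fold, adjusted p = 0.00446 and 4.99e-04), and it exceeded the 0.5 h effect by 0.91 ± 0.12 at 24 h (adjusted p = 0.00935). At 24 h it passed with each of the 16 arrays left out in turn (adjusted p up to 0.00991).

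Slc3a2, the heavy chain that partners Slc7a5 and Slc7a11 at the membrane, rose by 0.26 ± 0.06 at 24 h (adjusted p = 0.0349), when it stood at 12.34 with DMSO, 12.37 with exendin-4, 12.54 with BayK8644 and 12.70 with both agents. Slc7a5, the large neutral amino acid carrier, differed by between -0.08 and 0.14 and did not pass. Slc7a1, the widely expressed arginine carrier CAT-1, differed by 0.35 at 2 h and 0.32 at 6 h (adjusted p = 0.0644 and 0.0653). Slc38a2, Slc1a4 and Slc1a5, carriers of small neutral amino acids, differed by between -0.11 and 0.28 and did not pass. Of the other targets, Vldlr, a lipoprotein receptor gene, read 12.04, 12.15, 12.13 and 12.26 with DMSO, 12.06, 12.24, 12.21 and 12.38 with exendin-4, 12.23, 12.45, 12.59 and 12.63 with BayK8644 and 12.22, 12.49, 12.47 and 12.59 with both agents. At every time both arrays with BayK8644 were above both without it. Vldlr rose by 0.36 ± 0.07 at 6 h and 0.29 ± 0.07 at 24 h (adjusted p = 0.0326 and 0.0449), and all 6 of its probe sets were positive at 2, 6 and 24 h. With the mean of its probe sets the differences of 0.34 and 0.28 did not pass (adjusted p = 0.169 and 0.160), and the 24 h call was lost with any 1 of the 16 arrays left out. Xpot, the exporter of tRNA, differed by 0.04 to 0.21 and did not pass.

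Exendin-4 changed 0 of the 32 genes at any time in the same fit, where 1, 2, 0 and 0 of all genes passed (0.00943, 0.0189, 0 and 0%). At an unadjusted p under 0.05 there were 1, 12, 2 and 3 of the 32 at 0.5, 2, 6 and 24 h, and 200, 589, 739 and 627 of all genes. At 2 h, 31 of the 32 differences were positive, beside 58.2% of all genes, with a median of 0.14 against 0.02 over all genes. Those with the smallest p were Gpt2 (0.48 ± 0.10, adjusted p = 0.326), Cebpb (0.37 ± 0.08, adjusted p = 0.407) and Eif4ebp1 (0.30 ± 0.08, adjusted p = 0.591). A single array stood low at that time. For 15 of the 32 genes the DMSO array of 2 h was the lowest of all 16, beside 6.74% of all genes. Trib3, Nupr1, Cth, Cebpb, Ddit3 and Asns were among them. The 2 h differences of BayK8644 and of both agents from DMSO rest on that array too. Within arrays that held BayK8644, which do not use that array, the 2 h exendin-4 difference was 0.05 for Trib3 and 0.12 for Nupr1. Within arrays that did not hold BayK8644, it was 0.53 and 0.74. With and without BayK8644 it was 0.55 and 0.57 for Cth and 0.42 and 0.53 for Gpt2. For Cebpb it was 0.34 and 0.40, and for Eif4ebp1 0.42 and 0.19. Of the 32 genes, 26 were higher with exendin-4 in both of these pairs at 2 h, beside 33.1% of all genes.

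Over the 4 times together, the agents were compared in a fit of treatment with time as a block, in which the times stand in for replicates and effects that change with time count as error. BayK8644 alone raised 4 of the 32 genes over DMSO and lowered 0 (0.481% of all genes rose and 0.358% fell): Vldlr by 0.33 ± 0.04, Ddit3 by 0.41 ± 0.07, Cebpb by 0.45 ± 0.08 and Cebpg by 0.22 ± 0.04 (adjusted p = 0.00302, 0.0193, 0.0207 and 0.0272). Both agents together raised 18 and lowered 0 (4.38% of all genes rose and 2.59% fell), with a median of 0.27 against 0.02 over all genes. Exendin-4 alone changed 0 of the 32 and 0% of all genes (limma, 4 of the 32 and 698 of all genes at an unadjusted p under 0.05). These comparisons share the DMSO arrays.

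The 18 genes that rose with both agents included 6 of the 7 transcription factors and effectors. Atf4 rose by 0.23 ± 0.06 (adjusted p = 0.0420), Atf3 by 0.60 ± 0.14 (adjusted p = 0.0241), Ddit3 by 0.52 ± 0.07 (adjusted p = 0.00238), Cebpb by 0.60 ± 0.08 (adjusted p = 0.00211), Cebpg by 0.27 ± 0.04 and Nupr1 by 0.84 ± 0.21. Of the feedback group, Trib3, Chac1, Eif4ebp1 and Ppp1r15a rose by 0.55, 0.45, 0.56 and 0.31 (adjusted p = 0.0409, 0.0266, 0.0174 and 0.0392). Synthesis genes that passed were Cth (0.99 ± 0.25), Gpt2 (0.38 ± 0.11) and Psat1 (0.21 ± 0.06, adjusted p = 0.0498), and transporters were Slc7a3 (0.62), Slc7a1 (0.36) and Slc3a2 (0.25). Vldlr and Xpot rose by 0.30 and 0.18. Phgdh and Psph differed by 0.40 and 0.38 without passing (adjusted p = 0.0523 and 0.0558).

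Although 18 genes passed with both agents and 4 with BayK8644 alone, the difference between these treatments was not established for any gene. Both agents against BayK8644 alone gave 0 of the 32 and 0 of all genes (limma, 3 of the 32 and 1372 of all genes at an unadjusted p under 0.05). The median was 0.09 against 0.04 over all genes, and 28 of 32 were positive, beside 65.0% of all genes. The test of departure from additive effects gave 0 of the 32 and 0 of all genes too. At an unadjusted p under 0.05 (limma) there were 1 of the 32 and 710 of all genes. The 1 of the 32 was Ddit4 (-0.33 ± 0.07, adjusted p = 0.614). Set against exendin-4 alone, BayK8644 alone was higher for Vldlr, by 0.25 ± 0.04 (adjusted p = 0.0154; 0.490% of all genes were higher and 0.264% lower). For Vldlr this call was lost without the BayK8644 array of 2, 6 or 24 h or the exendin-4 array of 2 or 6 h, and 2 genes passed without the array with both agents of 0.5 h.

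Single arrays weighed on these counts. For both agents the 18 became 4 when the 2 h array of either DMSO or both agents was left out, 5 when the 6 h array of either was left out, 10 when the DMSO array of 24 h was, and 5 when the array with both agents of 24 h was. Ddit3, Cebpb, Cebpg and Vldlr passed for both agents with every array left out in turn. With the mean of probe sets, however, Ddit3, Cebpg and Vldlr did not pass for both agents (adjusted p = 0.142, 0.193 and 0.0797), and Cebpb, Cebpg and Vldlr did not pass for BayK8644 alone (adjusted p = 0.113, 0.392 and 0.138). For BayK8644 alone the 4 became 10 without the DMSO array of 0.5 h and 7 without the array with both agents of 0.5 h. It became 1 when the DMSO array of 2 or 24 h or the BayK8644 array of 2, 6 or 24 h was left out, and 2 in the absence of the DMSO array of 6 h. With the 8 arrays compared alone, both counts were 0.

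By time, both agents were above DMSO for 16 of the 32 genes at 0.5 h, 30 at 2 h, 29 at 6 h and 28 at 24 h, with median differences of 0.00, 0.39, 0.32 and 0.30. BayK8644 alone was above DMSO for 17, 28, 28 and 27, with medians of 0.02, 0.28, 0.27 and 0.20. At all 4 times, both agents were above DMSO for 13 of the 32 genes, beside 17.2% of all genes. For BayK8644 alone it was 15 of the 32, beside 9.88% of all genes. At 2 h the DMSO array, the reference here, was the lowest of all 16 for 15 of the 32 genes. The highest of all 16 arrays was the 6 or the 24 h array with both agents for 9 genes each, and its 2 h array for 4. Shares of all genes were not worked out for the counts above DMSO at single times or for the highest array. The heat map shows the differences from DMSO array by array.

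**Figure D4:**
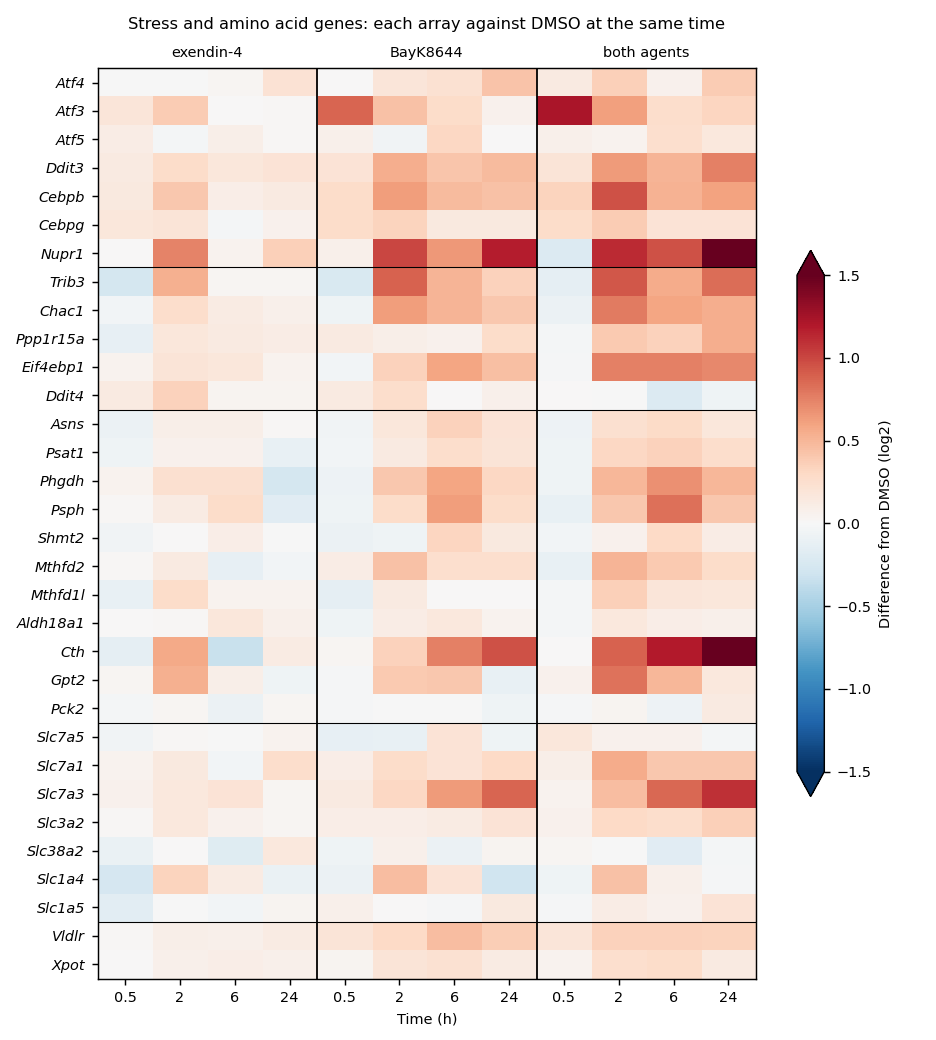
Difference of each treated array from the DMSO array of the same time (log2, red higher, blue lower) for the 32 genes in rows, grouped by role, and the 12 treated arrays in columns. At 2 h, 28 of the 32 rows are above 0 with BayK8644 and 30 with both agents; the darkest cells are those of Cth and Nupr1 with both agents at 24 h.

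Culture time, common to all treatments in the same fit, moved 3, 2 and 5 of the 32 genes at its 3 steps. From 0.5 to 2 h, Cebpg (0.25 ± 0.04, adjusted p = 0.00760) and Vldlr (0.19 ± 0.04, adjusted p = 0.0231) rose and Atf3 fell by 0.64 (adjusted p = 0.0204), where 2.05% of all genes rose and 2.64% fell. With the mean of probe sets Cebpg and Vldlr did not pass at this step (adjusted p = 0.873 and 0.291). Atf3 went from 9.55 to 9.12 with DMSO and from 9.73 to 9.50 with exendin-4. It went from 10.42 to 9.57 with BayK8644 and from 10.78 to 9.74 with both agents. From 2 to 6 h, Atf5 (0.26) and Aldh18a1, which starts proline synthesis (0.22), rose and 0 fell (adjusted p = 0.0493 and 0.0466; 0.170% of all genes rose and 0.236% fell). From 6 to 24 h, Nupr1 (0.68 ± 0.21, adjusted p = 0.0443) and Ddit4 (0.27 ± 0.05, adjusted p = 0.00293) rose, and Psat1, Shmt2 and Slc7a5 fell by 0.24, 0.23 and 0.20 (adjusted p = 0.0180, 0.0185 and 0.0463), where 6.76% of all genes rose and 6.42% fell. At this last step Nupr1 went from 8.03 to 8.36 with DMSO and from 8.09 to 8.73 with exendin-4. It went from 8.68 to 9.54 with BayK8644 and from 8.99 to 9.86 with both agents. The count of 3 at the first step became 1 without the BayK8644 array of 0.5 h or the array with both agents of 2 h. The count of 2 at the next step became 0 without any 1 of 11 arrays and 1 without the DMSO array of 6 h. The count of 5 at the last step became 3 without the DMSO or exendin-4 array of 6 h, the BayK8644 array of 24 h or any 2 h array that held an agent. It became 2 without the BayK8644 array of 6 h or the array with both agents of 24 h, and 1 without the array with both agents of 6 h.

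Further genes of the pathway were taken from lists drawn up by function, and their BayK8644 differences at single times are given first. Of 19 cytosolic aminoacyl-tRNA synthetases, several of which ATF4 is known to control, 0 rose and 0 fell at any time, with medians of -0.03, 0.04, 0.10 and 0.08. Of 16 genes for eIF2 kinases, phosphatases and eIF2 and eIF2B subunits, 0 passed for BayK8644 at any single time, with medians of 0.00, 0.06, 0.07 and 0.09. Of 8 NRF2 targets, genes of the oxidative stress response that share Slc7a11 with ATF4, 0 passed for BayK8644 at any single time. Of 13 other serine, one-carbon and glutathione genes Got1, the cytosolic aspartate aminotransferase gene, rose by 0.50 ± 0.08 at 6 h and 0.43 ± 0.08 at 24 h (adjusted p = 0.0146 and 0.0204), and 0 fell. Over all genes, 1.71% rose at 6 h and 2.99% at 24 h. With both agents against DMSO over all times, 3 of the 16 eIF2 genes rose, Eif2b3, Eif2b4 and Impact, by 0.31, 0.32 and 0.27 (adjusted p = 0.0360, 0.0190 and 0.0321). In the same comparison 1 of the 19 synthetases, Kars, rose by 0.26 (adjusted p = 0.0399), as did 1 of the 8 NRF2 targets, Srxn1, by 0.34 (adjusted p = 0.0457), and 0 of these lists' genes fell. Over all genes, 4.38% rose and 2.59% fell in that comparison.

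The parallel IRE1 and ATF6 arms of the unfolded protein response, which build ER folding capacity, had 0, 2, 5 and 6 of 20 genes that rose with BayK8644 at 0.5, 2, 6 and 24 h and 0 that fell, with medians of 0.01, 0.08, 0.23 and 0.18. The share of all genes that rose was 0.217, 1.15, 1.71 and 2.99% at these times. Dnajb9, an ER co-chaperone, rose by 0.51, 0.55 and 0.56 at the last 3 times (adjusted p = 0.0452, 0.0284 and 0.0174), and Sdf2l1 rose by 0.73 ± 0.12 at 24 h (adjusted p = 0.0133). With both agents against DMSO over all times, 8 of the 20 rose and 0 fell, beside 4.38 and 2.59% of all genes. At 6 h, 5 of these 20 genes and 13 of the 32 stress and amino acid genes rose, and the difference between the lists was not tested.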

How the data were processed

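The 16 arrays of mouse R7T1 cells were 1 for each treatment and time. The authors deposited a linear intensity per probe set; the submitters' processing notes name GCRMA; GCRMA corrects background by probe sequence, normalizes by quantiles and summarises probes, and the sources used here do not give its version. Per the labels' protocols, 5 ug of total RNA went through a single amplification with a biotin label. The deposited intensity was put on the log2 scale as it stood, without a pseudocount or a new normalization. Of 45101 probe sets, 34945 had 1 symbol in the platform annotation and were no control, 932 had several and 9211 had none; the brightest probe set that reached log2 4 on at least 2 arrays stood for a gene, which left 10610 genes. The number of arrays limits the precision.

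Models were fitted over all genes with limma 3.58.1 in R 4.3.3 (lmFit, eBayes with an intensity trend), with Benjamini-Hochberg adjustment over the 10610 genes and 0.05 as threshold. Treatment plus time left 9 residual degrees of freedom; agents nested in time, taken as additive, left 4. Differences are log2 values with limma's SE. Promoter sequences are RefSeq's (GRCm38.p6). All 35 listed genes are accounted for; those that passed are named, and other lists give counts with up to 4 examples. The members and lists were chosen with earlier results of these data known. Alternatives were a pseudocount of 16, quantile normalization, no filter, a filter at log2 6, the mean of probe sets, no trend, array weights, the 8 arrays compared and each array left out. Both agents against BayK8644 alone and the further probe sets were added after seeing the data.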

Additional observations from a re-analysis of the deposited data

Results flagged for a closer look

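For 6 genes the BayK8644 effect differed between times by a test of that difference itself (limma, adjusted over all genes). Against the effect at 0.5 h, that of Chac1 was larger by 0.63 ± 0.09 at 2 h (adjusted p = 0.0328) and by 0.48 ± 0.09 at 24 h (adjusted p = 0.05 after rounding, just under the threshold). That of Psph was larger by 0.69 ± 0.10 at 6 h (adjusted p = 0.0288). At 24 h, Slc7a3 exceeded its early effect by 0.91 ± 0.12 (adjusted p = 0.00935), Nupr1 by 1.22 ± 0.22 (adjusted p = 0.0409) and Eif4ebp1 by 0.61 ± 0.11 (adjusted p = 0.0462), while the difference for Atf3 was -0.78 ± 0.14 (adjusted p = 0.0404). Over all genes, 0.207, 0.236 and 0.603% had a larger effect at 2, 6 and 24 h than at 0.5 h. Of these 7 results, only that of Slc7a3 passed under all 7 alternatives run. Those of Nupr1, Atf3 and Chac1 at 24 h missed the threshold under 4, 4 and 5 of the 7. Those of Eif4ebp1 at 24 h, Psph at 6 h and Chac1 at 2 h passed under only 4, 4 and 5 of the 7. With 1 array left out, adjusted p rose to 0.164 for Slc7a3 and to between 0.429 and 0.455 for the others.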

How the results depend on the processing

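Counts below are of the 32 genes that passed in limma. Of 71 passing results for single genes, 0 changed direction over all alternatives; under the processing alternatives 395 values passed and 125 did not, and with 1 array left out 671 passed and 465 did not. The BayK8644 rise of Slc7a3 at 24 h and the 24 h rise of Ddit4 over 6 h passed under every alternative run. With the mean of probe sets, the count changed from 4 to 1 for BayK8644 against DMSO, from 1 to 0 for BayK8644 against exendin-4, from 5 to 3 for BayK8644 at 2 h, from 2 to 1 for 6 against 2 h and from 5 to 2 for 24 against 6 h. Without a filter it changed from 18 to 8 for both agents against DMSO, from 13 to 8 for BayK8644 at 6 h, from 2 to 0 for 6 against 2 h and from 5 to 3 for 24 against 6 h. Without an intensity trend it was 2, 5 and 7 for BayK8644 at 2, 6 and 24 h, 0 for 6 against 2 h and 3 for 24 against 6 h. With array weights it was 12 for BayK8644 against DMSO, 2 for BayK8644 against exendin-4, 5 for BayK8644 at 24 h, and 5 for both 2 against 0.5 h and 6 against 2 h. With only the 8 arrays compared it was 0 for BayK8644 against DMSO, both agents against DMSO and BayK8644 against exendin-4. The cause of these shifts was not tested, save that fewer arrays leave fewer degrees of freedom.

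With 1 array left out in turn, the count ranged from 1 to 10 for BayK8644 against DMSO, 4 to 23 for both agents against DMSO, 0 to 2 for BayK8644 against exendin-4 and 0 to 1 for both agents against BayK8644. It ranged from 0 to 1, 0 to 9, 0 to 16 and 1 to 13 for BayK8644 at 0.5, 2, 6 and 24 h, and from 1 to 4, 0 to 3 and 1 to 6 for the 3 steps of culture time. For exendin-4 it stayed 0. A treatment left with a single array at a time is assumed to vary like the others. The labels carry no replicate numbers, and arrays were matched by time.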

Other observations

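In the list of other stress and amino acid genes, responses to BayK8644 went both ways. At 6 h, 3 of the 19 measured genes fell and 0 rose, beside 0.773 and 1.71% of all genes. At 24 h there were 3 with a rise and 2 with a fall, beside 2.99 and 2.12% of all genes. Gadd45a, a growth arrest gene, fell by 0.84 at 6 h and 1.07 at 24 h (limma, adjusted p = 6.73e-04 and 1.45e-04), Klhl24 fell by 0.69 at 6 h (adjusted p = 0.0161), and Ndrg1 fell by 0.36 at 6 h (adjusted p = 0.0167). At 24 h Gadd45b rose by 0.71 ± 0.13 (adjusted p = 0.0160), the glycine transporter gene Slc6a9 by 0.79 ± 0.19 and the ER oxidase gene Ero1a by 0.52 ± 0.12 (adjusted p = 0.0488 and 0.0422).

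The ER stress response element was in the 250-base window of 8 of 17 genes of the IRE1 and ATF6 list (47.1%), among them Hspa5, Pdia6 and Creld2, against 0.13% of all 27025 genes with a window. The core TGATGNAA was in 1 of those 17 (5.88%) and in 3 of 13 aminoacyl-tRNA synthetase genes (23.1%). These lists were drawn up by function, so shares above that of all genes are no independent evidence.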
